A study of Mus musculus with 3 samples.

Results

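T cells washed from mouse airspaces were the 78 cell barcodes, of 12297 that passed the filter, in which the transcripts of the T cell receptor complex were counted at least 2 times. A barcode passed with at least 500 UMIs (unique molecular identifiers, each standing for 1 captured RNA molecule), at least 300 genes and at most 10% of its UMIs from mitochondrial genes. It was called a T cell where the UMIs of Cd3d, Cd3e, Cd3g, Trac, Trbc1 and Trbc2 summed to 2 or more. These measured values chose the T cells, so the 6 genes are given as a description. The libraries came from wild-type C57BL/6J mice, 12 weeks old, kept for 3 hours in filtered air or in ozone at 1 ppm or 1.5 ppm, and the cells were collected 22 to 24 hours afterwards. The right lung lobes were lavaged, the immune cells of 3 to 4 mice per exposure were pooled, and each pool gave 1 droplet library. Each exposure is therefore a single library with no replicate. No test between exposures was possible, and every interval below is a 95% interval that covers counting error only.

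T cells recognise peptide antigens through a receptor made of an alpha and a beta chain, whose constant parts are encoded by Trac and by Trbc1 or Trbc2, while a smaller lineage uses gamma and delta chains instead. Neither receptor signals by itself, and the CD3 chains encoded by Cd3d, Cd3e and Cd3g carry the signal to kinases inside the cell. Healthy airspaces hold few T cells beside a large majority of alveolar macrophages, and lung gamma delta T cells are known as an early source of interleukin-17.

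The 3 CD3 genes lie side by side on mouse chromosome 9, and their promoters are shown because 75 of the 78 T cells were recognised in part by UMIs from these genes. The sequences are from RefSeq on the build GRCm38.p6, run 5′ to 3′ from 250 bases before to 50 bases after the start site, and have each match to the E-box motif CANNTG in capitals. Cd3d is at chr9:44981536-44981835 on the plus strand, Cd3e at chr9:45009562-45009861 on the minus strand and Cd3g at chr9:44980382-44980681 on the minus strand.
Cd3d: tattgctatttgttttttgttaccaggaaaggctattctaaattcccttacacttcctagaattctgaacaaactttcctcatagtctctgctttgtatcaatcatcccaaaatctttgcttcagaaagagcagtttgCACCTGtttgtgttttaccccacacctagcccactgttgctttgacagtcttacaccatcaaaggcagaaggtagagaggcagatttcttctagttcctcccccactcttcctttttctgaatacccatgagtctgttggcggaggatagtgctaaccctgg
Cd3e: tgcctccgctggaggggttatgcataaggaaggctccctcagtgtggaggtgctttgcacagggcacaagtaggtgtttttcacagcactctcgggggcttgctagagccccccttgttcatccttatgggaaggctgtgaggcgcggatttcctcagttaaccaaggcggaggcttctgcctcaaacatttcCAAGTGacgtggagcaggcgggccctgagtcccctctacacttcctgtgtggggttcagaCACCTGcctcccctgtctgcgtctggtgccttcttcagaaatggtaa
Cd3g: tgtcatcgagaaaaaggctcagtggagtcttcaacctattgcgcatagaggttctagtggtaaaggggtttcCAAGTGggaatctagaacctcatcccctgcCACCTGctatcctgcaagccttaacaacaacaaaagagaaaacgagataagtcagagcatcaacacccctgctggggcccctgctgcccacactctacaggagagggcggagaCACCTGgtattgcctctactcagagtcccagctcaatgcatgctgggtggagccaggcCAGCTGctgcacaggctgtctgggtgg
The Cd3d window held 1 E-box match, the Cd3e window 2 and the Cd3g window 4. The motif reads the same on both strands, and 72.1% of the 27025 RefSeq promoters of this length held at least 1 match, while 6.52% held 4 or more. The letters GGAA, the core of the motif bound by ETS factors, were found on either strand 6 times in the Cd3d window, 5 times in the Cd3e window and 2 times in the Cd3g window, and 95.9% of all promoters held them. GATA was found 2 times in the Cd3d and the Cd3g window each and not in the Cd3e window, against 58.3% of promoters with a match. Cd3d and Cd3g are read in opposite directions from start sites 1355 bases apart, and the Cd3e start site lies 27825 bases from that of Cd3d. A match describes the letters and says nothing of binding in these cells.

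The libraries held 5307, 3233 and 7269 barcodes after filtered air, 1 ppm and 1.5 ppm ozone, with 59359742, 42825676 and 95403078 UMIs, and 3479, 2241 and 6577 barcodes passed. Barcodes above the mitochondrial limit were 34.2%, 30.6% and 9.07% of the libraries in the same order, so the limit weighed least on the 1.5 ppm library. Of the 1594, 842 and 454 barcodes that the limit alone removed, 1, 0 and 0 met the T cell rule. The 1.5 ppm library shared 10 barcode sequences with the filtered air library and 4 with the 1 ppm library, which in turn shared 4 with filtered air, and none of them was a T cell.

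The filtered air library held 12 T cells, the 1 ppm library 4 and the 1.5 ppm library 62. Cd3g, the gamma chain of CD3, was detected in 65 of the 78 T cells and reached 16 UMIs in 1 cell. Trbc2 was detected in 58, Cd3e in 54, Cd3d in 49, Trac in 45 and Trbc1 in 28. In all, 66 of the 78 held at least 3 of the 6 genes, and 71 held a UMI of an alpha or beta chain. Just inside the rule lay 5 T cells with exactly 2 UMIs of the 6 genes and 6 with 3, all of the 1.5 ppm library. Just outside it lay 12, 6 and 17 barcodes with 1 UMI in the order of dose, of which 9, 6 and 11 were rich in macrophage transcripts. In barcodes rich in macrophage transcripts that are not T cells, the share with a UMI of Cd3e was 0.043% and that of Trbc2 0.017%, while Trbc1 was at 0 UMIs in all 11585 of them.

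The label was checked against Il7r and Bcl11b, which the rule did not use. Il7r, the interleukin-7 receptor chain that keeps resting T cells alive, was detected in all 12 T cells of filtered air and all 4 of 1 ppm ozone, and in 44 of the 55 of 1.5 ppm ozone that remain without macrophage-rich T cells, described next. Bcl11b, a transcription factor of the T cell lineage, was detected in 5 of 12, 4 of 4 and 39 of 55 in the same order. A further 31, 13 and 45 barcodes in the order of dose lay below the rule but held 5 or more UMIs of 12 further T cell genes that include both, with few macrophage transcripts. Il7r was detected in 29, 12 and 41 of these, and Bcl11b in 2, 1 and 0. Il7r is thus not confined to the T cells. Since both genes are in the list that chose these barcodes, their shares there do not measure how well either sets T cells apart. Which lymphocytes these are was not determined. All 78 T cells held at least 1 UMI of that list of 12 genes, which also holds Skap1, Lck and Themis. Natural killer cell markers were looked for in the T cells outside the macrophage-rich ones described next. They were detected in 5 of 12, 2 of 4 and 28 of 55 in the order of dose, with at most 0.680% of a barcode's UMIs. These 7 markers are not particular to natural killer cells. The other barcodes, mostly macrophages, held more of them per UMI in each library. At 1 ppm only 1 of the 7 had any UMI, Tyrobp, which reached 68 UMIs in 1 macrophage-rich T cell. The shares therefore do not count T cells with transcripts particular to natural killer cells. Markers of type 2 innate lymphoid cells were detected in 10 of 12, 4 of 4 and 41 of 55, while Il13 and Areg were at 0 in all of them. All of these markers, Gata3 and Rora among them, are also in the list of type 2 T cell genes used below. They therefore do not set such lymphoid cells apart from T cells.

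Some T cells also carried macrophage transcripts. The share of UMIs from 13 alveolar macrophage markers, among them Chil3, Ear1 and Lpl, lay between 0.944 and 1.51% in 7 T cells, all of the 1.5 ppm library, and at no more than 0.402% in the other 71. These 7 held up to 53375 UMIs, against at most 12198 in the other T cells, and 43.1% of all T cell UMIs of their library. They are called macrophage-rich here, no doublet caller was run, and each result that rests on them is given with and without them. Among the other 71, the macrophage markers Marco and Siglecf were at 0, while Chil3 was detected in 12 of 12, 4 of 4 and 47 of 55 T cells in the order of dose. Markers of basophils and mast cells and the C1q genes of another macrophage type were at 0 in all 78. The neutrophil transcript S100a8 was found in 1 of the 71, with 27 UMIs, and 1 T cell of the 1.5 ppm library held 85 UMIs of Cd74 and 131 of Cst3, both typical of antigen-presenting cells. That barcode met the rule on 3 UMIs of the 6 genes and also held 16 UMIs of Ccr7 and 26 of Mir155hg. Its kind was not determined. Another T cell of that library held 31 UMIs of the epithelial gene Scgb1a1. In the order of dose, 1, 1 and 6 of the 71 held 5 or more UMIs of other marker classes. These classes were neutrophil, dendritic, B cell, epithelial and natural killer markers, with Ccl5 left out.

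**Figure D1:**
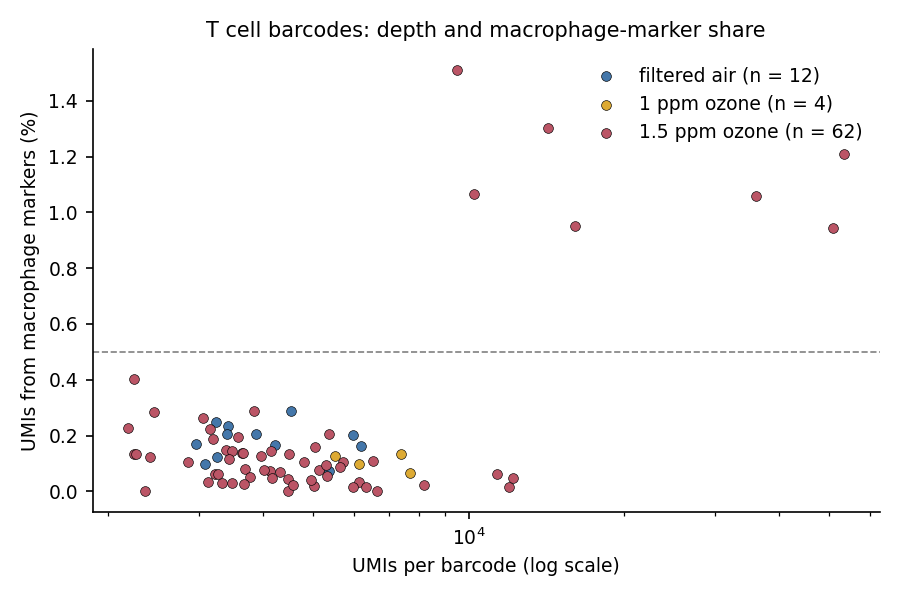
Each point is 1 of the 78 T cell barcodes, placed by its UMIs (log scale) and by the percentage of those UMIs that came from 13 alveolar macrophage markers; colour gives the library and the dashed line is at 0.5%. The 7 points above the line are all of the 1.5 ppm ozone library, and the other 71 lie at 0.402% or below.

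T cells made up a larger share of the 1.5 ppm library than of the others. After filtered air 12 of 3479 passing barcodes were T cells, a share of 0.345% with an exact binomial interval of 0.178 to 0.602%. After 1 ppm ozone the share was 0.178% (4 of 2241, interval 0.0487 to 0.456%), and after 1.5 ppm it was 0.943% (62 of 6577, interval 0.723 to 1.21%). The share at 1.5 ppm was 2.73 times that at filtered air (exact conditional interval 1.46 to 5.57) and 5.28 times that at 1 ppm (1.96 to 19.99). The share at 1 ppm was 0.517 times that at filtered air (0.122 to 1.71), an interval that holds equal shares. Without the 7 macrophage-rich T cells the share at 1.5 ppm was 0.836% (0.631 to 1.09%) and its ratio to filtered air 2.42 (1.28 to 4.97). Where each barcode was thinned at random to 1000 UMIs, so that depth was equal, 33 of 6404 barcodes (0.515%) met the rule at 1.5 ppm and 8 of 3438 (0.233%) at filtered air, a ratio of 2.21 (1.00 to 5.55).

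The ratio depended on what the T cells were counted against. Over the barcodes below 0.5% macrophage-marker UMIs alone, T cells were 12 of 106 in filtered air, a share of 11.3% (interval 5.99 to 18.9%). They were 4 of 55 in the 1 ppm library, a share of 7.27% (interval 2.02 to 17.6%), and 55 of 544 in the 1.5 ppm library, a share of 10.1% (interval 7.71 to 13.0%). On this scale the ratio of 1.5 ppm to filtered air was 0.893 (0.473 to 1.83). The wide interval holds equal shares, and the barcodes poor in macrophage transcripts as a whole were 544 of 6577 at 1.5 ppm and 106 of 3479 at filtered air. A share of barcodes does not tell more T cells from fewer macrophages, since the number of cells per lung was not measured.

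**Figure D2:**
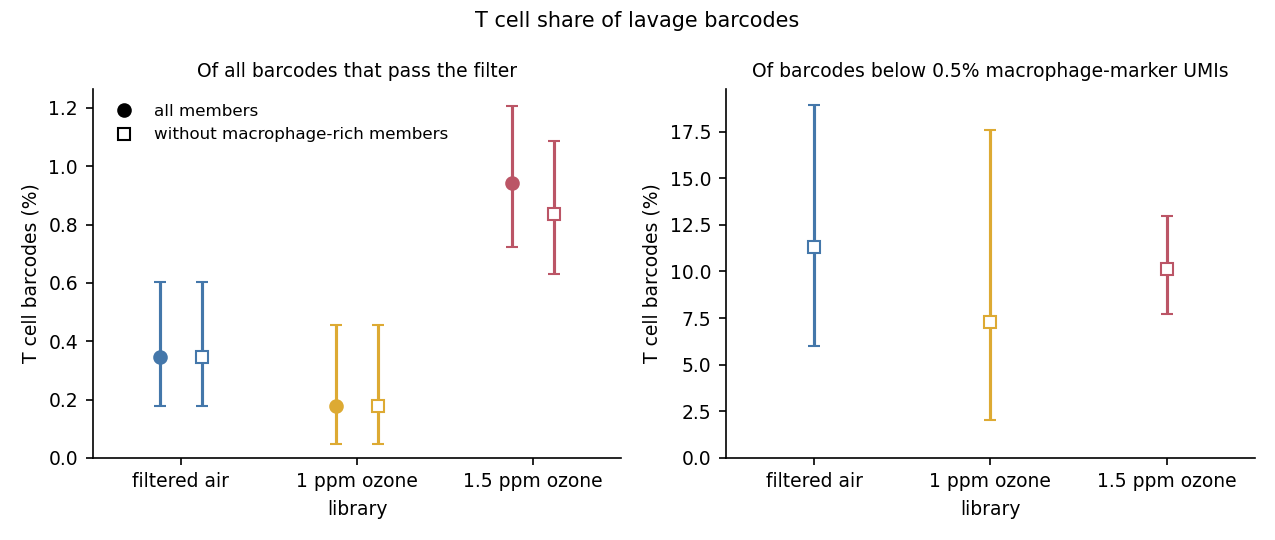
T cell barcodes as a percentage of all passing barcodes (left; filled circles all T cells, open squares without the 7 macrophage-rich ones) and of barcodes below 0.5% macrophage-marker UMIs (right), by library, with exact binomial 95% intervals. The 1.5 ppm library stands at 0.943% on the left, against 0.345% for filtered air, and the 3 intervals overlap on the right.

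T cells were smaller libraries than macrophages and carried a lower mitochondrial share. The 71 T cells had a median of 3643, 6753 and 4005 UMIs after filtered air, 1 ppm and 1.5 ppm, against 13775, 15879.5 and 12632.5 in barcodes rich in macrophage markers. Their median mitochondrial share was 2.92, 3.11 and 1.51% of UMIs in that order, against 4.11, 3.95 and 2.28% in the macrophage-rich barcodes of the same libraries. The mitochondrial share was thus lower at 1.5 ppm in both kinds of barcode. The values of single T cells overlapped between libraries, with 1.51 to 5.75% after filtered air, 2.85 to 3.97% after 1 ppm and 0.605 to 4.75% after 1.5 ppm. Whether the mitochondrial share plays a part in the differences between libraries below was not tested.

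**Figure D3:**
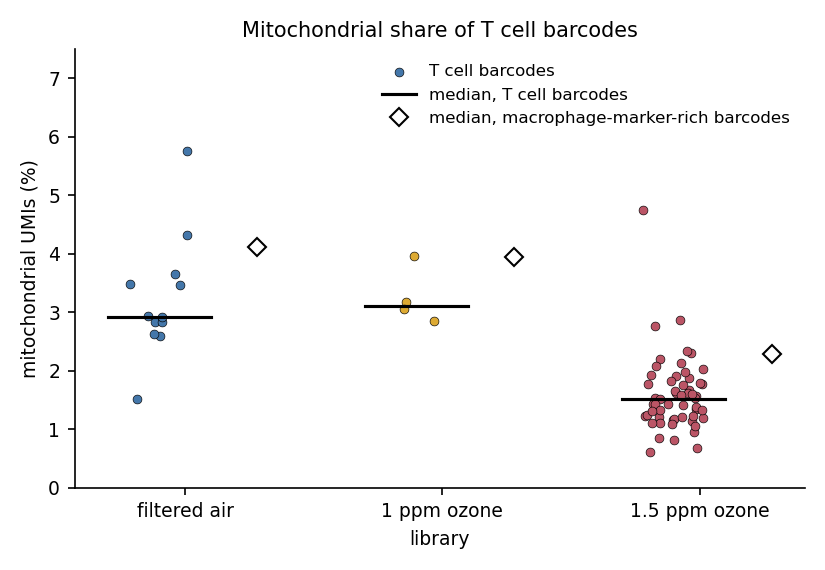
Mitochondrial UMIs as a percentage of all UMIs in each of the 71 T cell barcodes below 0.5% macrophage-marker UMIs (points) by library, with their median (line) and the median of the barcodes rich in macrophage markers (diamond). The T cell medians are 2.92, 3.11 and 1.51% from left to right, and each lies below the diamond of its library.

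Genes that set T cells apart from the other barcodes are given as the ratio of summed CPM, the count per 1e6 UMIs, over the 3 libraries, as a description of what the rule picked. Icos, an activating receptor related to CD28, led the ranking with 315 CPM in the 71 T cells and 0.0384 CPM in all other barcodes. Trdc, the constant part of the delta chain, followed with 174 CPM in T cells and 0.0219 CPM in the others. Thy1, a surface protein of mouse T cells, stood at 214 CPM in T cells and 0.0329 CPM in the others. The adaptor Skap1 was the most abundant gene of the leading 20, at 1577 CPM in T cells and 0.609 CPM in the others, with 1679, 1160 and 1601 CPM in the T cells of filtered air, 1 ppm and 1.5 ppm. Also among the leading 20 were Bcl11b, Il23r, Themis, Ctla2a, Tcf7, Lef1, Gimap3, St6galnac3, Gimap1, Camk4, Rnf125, Nkg7, Lck, Gimap8 and Gimap6. They include 4 members of the Gimap family of lymphocyte GTPases.

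T cells were sorted into 3 kinds by the UMIs of Cd4 (helper co-receptor), Cd8a or Cd8b1 (cytotoxic co-receptor) and Trdc, and no T cell held 2 of the 3 marks. Of all 78, 14 held Cd4, 11 a Cd8 chain, 8 Trdc and 45 none of them. Trdc did not part the receptor lineages cleanly, since most of the 8 also held Trbc2 and 2 held Trac. In 1 of these 2, at 1.5 ppm, there were 4 UMIs of Trdc, 3 of Trac and 1 of Trbc2. After filtered air 2 of 12 T cells held Cd4 (16.7%, interval 2.09 to 48.4%), 1 a Cd8 chain (8.33%, 0.211 to 38.5%) and 0 Trdc, which allows a share with a Trdc UMI of up to 25%. After 1 ppm 1 of 4 held Cd4, 1 held Trdc and 0 a Cd8 chain. After 1.5 ppm 11 of 62 held Cd4 (17.7%, 9.20 to 29.5%), 10 a Cd8 chain (16.1%, 8.02 to 27.7%) and 7 Trdc (11.3%, 4.66 to 21.9%). The intervals of each kind overlap between the libraries. Cd4 gave 1 UMI in most T cells that held it and 14 UMIs in all over 13 cells of the 71, so a T cell with none may still be of that kind. Among barcodes rich in macrophage markers, Trdc was found in 0.026% and Cd8b1 in 0.017%.

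The T cells with a Cd8 chain carried transcripts of cytotoxic cells. Among the 71, Nkg7, a protein of cytotoxic granules, was detected in 9 of 11 Cd8 T cells (81.8%, 48.2 to 97.7%), in 3 of 13 with Cd4 and in 1 of 7 with Trdc. Ccl5, a chemokine that attracts T cells and monocytes, was detected in 8 of 11 Cd8 T cells and in 4 of 13 with Cd4, and 1 Cd8 T cell of the 1.5 ppm library held 154 of its UMIs. Klrd1, the receptor chain also known as CD94, and Cxcr3, a homing receptor of type 1 T cells, were each found in 8 of 11 Cd8 T cells. The granule enzymes themselves were sparse, with Gzmb in 2 of 11, Prf1 in 2 and Gzma in 1.

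Several T cells with Trdc carried transcripts of the interleukin-17 lineage. Maf, a transcription factor of that lineage that helper T cells also use, was detected in 7 of 7 Trdc T cells, in 8 of 13 with Cd4 and in 15 of 40 with no mark. It had 0 UMIs in the 11 Cd8 T cells, which allows a share with a UMI of up to 27.3%. Il23r, the receptor for interleukin-23, was found in 5 of 7, in 8 of 40 with no mark and in 1 of 13 with Cd4, and Blk, a Src-family kinase, in 3 of 7. Il17a was found in 2 of 7 with 5 UMIs in all, and in no other T cell of the 71. Themis, which tunes alpha beta receptor signals in the thymus, and Cd28, a co-stimulatory receptor, had 0 UMIs in the 7 Trdc T cells, which allows a share with a UMI of up to 42.9%, and were detected in 11 and 9 of 13 T cells with Cd4.

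A group of 4 Trdc T cells shared 2 further genes, the delta variable segment Trdv4 and Scart1, a scavenger receptor of gamma delta T cells. The 1 of them in the 1 ppm library held 14 UMIs of Trdc, 15 of Scart1 and 3 of Trdv4. The 3 in the 1.5 ppm library held 7, 22 and 4 UMIs of Trdc, 10, 29 and 9 of Scart1 and 8, 14 and 4 of Trdv4. Itgae, the integrin chain CD103, reached 8 and 19 UMIs in 2 of those 3. Outside these 4, Scart1 had 1 UMI in the other T cells of the 71 and Trdv4 none. One more of the 7, a barcode of the 1.5 ppm library, went against its name. It met the rule on 2 UMIs of Trbc2 alone, with 0 of Cd3d, Cd3e, Cd3g, Trac and Il7r. It held 9 UMIs of Gzma, 9 of Klra8 and 1 of Ncr1, both receptors of natural killer cells, and its 0.680% of natural killer markers was the highest of the 71. Without it, Maf was in 6 of 6, Il23r in 5 of 6 and Nkg7 in 0 of 6 barcodes with Trdc.

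The largest class, 40 of the 71, held no mark of kind. Icos was found in 27 of these 40 and in 6 of 13 T cells with Cd4. Il18r1, the interleukin-18 receptor chain, was found in 36 of the 40 and in 8 of 13 with Cd4, and Themis in 23 of the 40 and in 11 of 13 with Cd4. Foxp3, the defining factor of regulatory T cells, was found in 1 T cell, of the filtered air library, with 2 UMIs. It held 1 UMI of Cd4 and is therefore outside these 40. That cell also held 28 UMIs of Ikzf2 and 10 of Ctla4, both high in regulatory T cells, 12 of Il1rl1, the receptor for interleukin-33, and 106 of Frmd5.

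**Figure D4:**
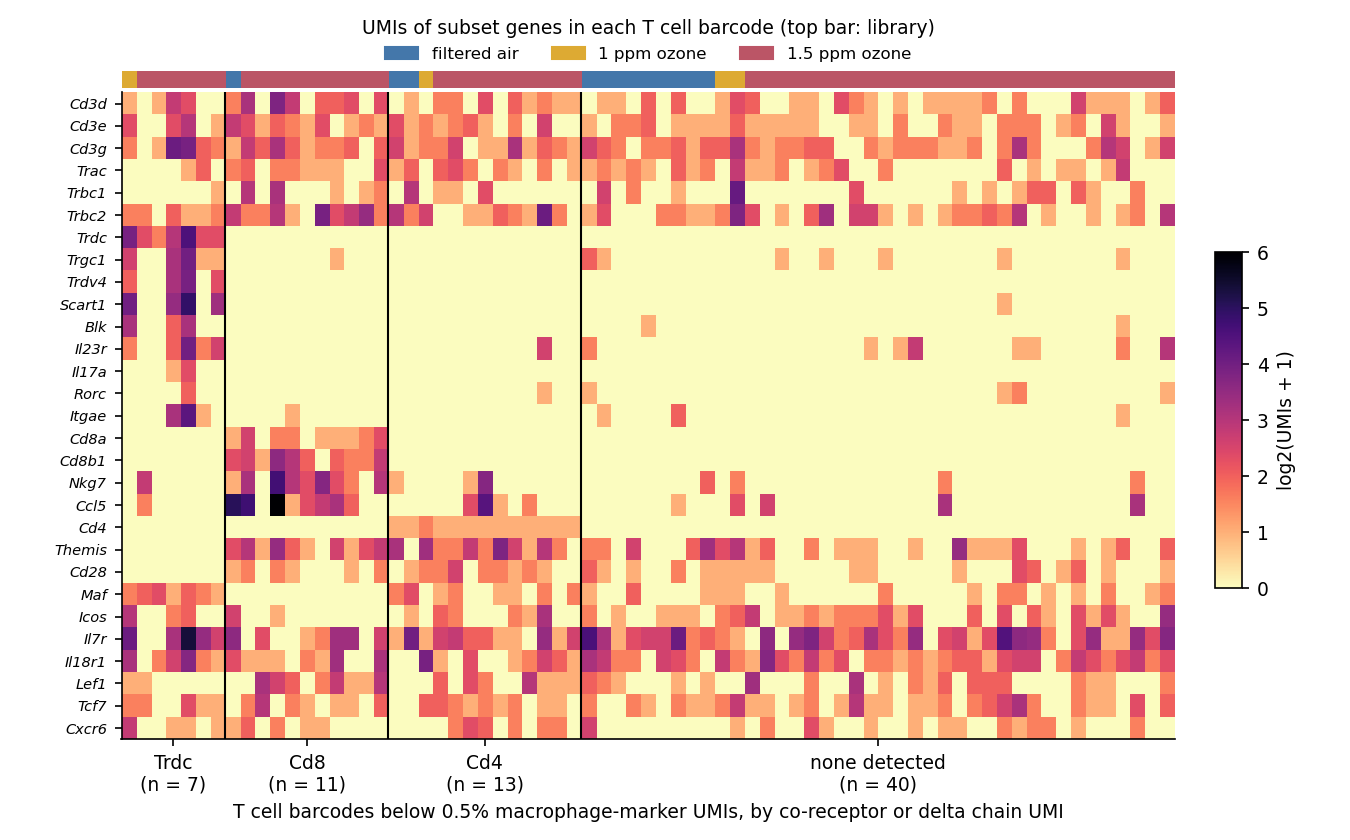
UMIs of 29 genes (rows) in each of the 71 T cell barcodes below 0.5% macrophage-marker UMIs (columns), as log2(UMIs + 1) with the colour scale ending at 6, grouped by the mark of kind and coloured by library in the top bar. Scart1 and Trdv4 stand out in 4 of the 7 Trdc T cells, and Nkg7 and Ccl5 in 9 and 8 of the 11 Cd8 T cells.

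Levels were then compared between libraries as CPM summed over the T cells of each. With all 78, 593 genes had a 2-fold or larger ratio of 1.5 ppm over filtered air (12.3%) and 698 a ratio as far below 1 (14.4%), together 26.7% of the 4831 genes with at least 20 UMIs over both libraries. The largest of those ratios belonged to genes that macrophages carry. Lrmda had 242 UMIs (548 CPM) in the T cells of 1.5 ppm and 0 in those of filtered air, at least 9.04-fold higher when 3 UMIs per library are taken as the floor, and stood at 1531 CPM in the macrophage-rich barcodes of the 1.5 ppm library; 12 of the 242 UMIs were outside the 7 macrophage-rich T cells. Without the 7 macrophage-rich T cells 223 genes were higher (7.09%) and 272 lower (8.64%) by that size, together 15.7% of 3147, of which 132 and 219 were also past 2-fold with all 78. The following values are therefore for the 71, where the T cells summed to 49433, 26719 and 251110 UMIs in the order of dose. In these T cells the alveolar macrophage markers together still differed between libraries, at 1800, 1048 and 868 CPM in the order of dose, against 18030, 20043 and 14019 CPM in the other barcodes, and their part in the ratios below was not tested. In this set the median log2 ratio of 1.5 ppm over filtered air was -0.11 over all 3147 genes. Since 55 of these T cells are of the 1.5 ppm library, a gene reaches 20 UMIs mainly through that library. The counts of list members past 2-fold and the median log2 ratios of lists below therefore describe the genes measured and support no direction.

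Genes of the T cell receptor complex and its signalling were at like levels as a group. The 24 genes summed to 10139 CPM at 1.5 ppm and 10964 CPM at filtered air, a ratio of 0.925 (0.843 to 1.02). With all 78 T cells, where macrophage transcripts add to the total, the ratio was 0.620 (0.565 to 0.680). Of the 22 with enough UMIs, 2 were past 2-fold higher and 2 past 2-fold lower, with a median log2 ratio of -0.23. Lat, the membrane adaptor that gathers signalling proteins below the receptor, had 48 UMIs in 31 of 55 T cells (191 CPM, exact Poisson interval 141 to 253) at 1.5 ppm and 0 UMIs in 12 T cells at filtered air, at least 3.15-fold higher. No single T cell held more than 4 of those UMIs, and at 1 ppm Lat had 3 UMIs in 1 of 4 T cells. Cd247, the zeta chain of the complex, stood at 474 CPM in 36 of 55 T cells at 1.5 ppm and 80.9 CPM in 3 of 12 at filtered air, a ratio of 5.86 (2.23 to 21.8). At 1 ppm it was 412 CPM in 3 of 4 T cells. The co-receptor list with Cd4, Cd8a, Cd8b1 and Cd40lg summed to 331 CPM at 1.5 ppm and 223 CPM at filtered air, a ratio of 1.49 (0.789 to 3.09). Il7r stood lower, with 1179 CPM at 1.5 ppm and 1902 CPM at filtered air, a ratio of 0.620 (0.490 to 0.790).

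Genes of naive and recirculating T cells summed to 1836 CPM at 1.5 ppm (1672 to 2011) and 991 CPM at filtered air (733 to 1310), a ratio of 1.85 (1.38 to 2.54). With all 78 T cells the ratio was 1.12 (0.837 to 1.54), so the difference depended on leaving out the 7 macrophage-rich ones. The 5 of 7 genes with enough UMIs had a median log2 ratio of 0.69 (-0.04 with all 78), and 1 of them, Lef1, was past 2-fold. Lef1, a transcription factor high in naive and memory precursor T cells, stood at 374 CPM in 30 of 55 T cells at 1.5 ppm and 162 CPM in 5 of 12 at filtered air, a ratio of 2.31 (1.13 to 5.51). Its partner Tcf7 stood at 350 CPM in 40 of 55 and 182 CPM in 6 of 12, a ratio of 1.92 (0.969 to 4.35), and Klf2, which keeps T cells circulating, at 323 CPM and 182 CPM, a ratio of 1.77 (0.889 to 4.01). Both intervals reach below 1. The homing receptor Ccr7 had 19 UMIs at 1.5 ppm, 16 of them in the T cell with 85 UMIs of Cd74, and 0 at filtered air. After thinning to 1000 UMIs, 38 of 55 T cells at 1.5 ppm and 6 of 12 at filtered air still held a UMI of the list.

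Genes of type 1 and cytotoxic T cells also had higher sums at 1.5 ppm in the 71. The type 1 list stood at 1581 CPM at 1.5 ppm and 870 CPM at filtered air, a ratio of 1.82 (1.32 to 2.55) with a median log2 ratio of 0.47 over 4 genes (-0.26 with all 78), but 1 T cell held 154 of the 252 UMIs of Ccl5 at 1.5 ppm and 1 held 32 of the 33 at filtered air. Without the T cell with most UMIs of the list in each library, the list stood at 977 CPM and 178 CPM, a ratio of 5.49 (2.74 to 12.9). This step took 158 of 397 UMIs at 1.5 ppm and 35 of 43 at filtered air. It removes 1 of 55 T cells at 1.5 ppm but 1 of 12 at filtered air. Ratios after it therefore show dependence on single cells and support no direction. With all 78 the ratio was 1.07 (0.777 to 1.49). Stat4, the factor that relays interleukin-12, was less tied to single cells, at 354 CPM in 33 of 55 T cells at 1.5 ppm and 121 CPM in 4 of 12 at filtered air, a ratio of 2.92 (1.29 to 8.17). The cytotoxic list stood at 741 CPM at 1.5 ppm and 303 CPM at filtered air, a ratio of 2.44 (1.44 to 4.45) with a median log2 ratio of 1.61 over 3 genes. With all 78 the ratio of the sums was 1.40 (0.825 to 2.55). Nkg7 gave 92 of its 186 UMIs at 1.5 ppm, at 366 CPM in 13 of 55 T cells and 101 CPM in 3 of 12. Ifng was detected in 4 of all 71 T cells.

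Genes of gamma delta T cells summed to 705 CPM at 1.5 ppm and 364 CPM at filtered air, a ratio of 1.94 (1.19 to 3.34). At 1 ppm they summed to 1460 CPM, 4.01 times the level at filtered air (2.24 to 7.44). Of these UMIs, 1 Trdc T cell held 36 of the 39 at 1 ppm, and 1 held 71 of the 177 at 1.5 ppm. No T cell of filtered air held Trdc. Without the T cell with most UMIs of the list in each library, the ratio of 1 ppm to filtered air turned round to 0.507 (0.0926 to 1.84). The ratio of 1.5 ppm to filtered air was 1.54 (0.862 to 2.98) without such T cells, and with all 78 it was 1.21 (0.744 to 2.08). Scart1, with 49 UMIs at 1.5 ppm and 0 at filtered air, was at least 3.22-fold higher, but 29 of its UMIs came from 1 T cell. Trdc, with 43 and 0 UMIs, was at least 2.82-fold higher, with 22 of its UMIs in 1 T cell. The type 17 list, which shares that lineage, stood at 920 CPM at 1.5 ppm and 789 CPM at filtered air, a ratio of 1.17 (0.828 to 1.68).

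The lower sums of regulatory, inhibitory and type 2 genes at 1.5 ppm rested on 1 T cell of filtered air, the one with Foxp3. The regulatory T list stood at 641 CPM at 1.5 ppm and 1376 CPM at filtered air, a ratio of 0.466 (0.349 to 0.628), but that T cell held 57 of the 68 UMIs at filtered air. Without the T cell with most UMIs of the list in each library the ratio turned round to 2.34 (1.27 to 4.80). At 1.5 ppm the step took 15 of 161 UMIs, so the turned ratio supports no direction. Inhibitory receptor genes stood at 518 CPM and 1133 CPM, a ratio of 0.457 (0.332 to 0.637), and at 0.992 (0.587 to 1.77) without such T cells, since the same one held 39 of the 56 UMIs at filtered air. The type 2 list stood at 585 CPM and 931 CPM, a ratio of 0.629 (0.449 to 0.896), and at 0.823 (0.548 to 1.28) without them, since it held 17 of the 46 UMIs. Among type 2 genes, the factor Gata3 was seen in 15 of 55 T cells at 1.5 ppm (67.7 CPM) and in 6 of 12 at filtered air (182 CPM), a ratio of 0.372 (0.157 to 0.947), and 4 of its 9 UMIs at filtered air were in that T cell. Genes of tissue resident memory T cells stood at 892 CPM and 829 CPM, a ratio of 1.08 (0.768 to 1.54), and of 0.678 (0.485 to 0.967) with all 78.

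Activation genes as a list did not differ beyond counting error. The 22 genes summed to 2111 CPM at 1.5 ppm and 2084 CPM at filtered air, a ratio of 1.01 (0.819 to 1.26). The list is not particular to T cells, since in the other barcodes it stood at 1720 CPM at 1.5 ppm and 2472 CPM at filtered air. Of 8 with enough UMIs, 2 were past 2-fold higher and 1 past 2-fold lower, with a median log2 ratio of 0.26 (-0.34 with all 78). Within the list, Tnfaip3, a brake on NF-kappa-B signalling, stood at 79.6 CPM in 16 of 55 T cells at 1.5 ppm and 364 CPM in 6 of 12 at filtered air, a ratio of 0.219 (0.110 to 0.439). Nfkbia, the inhibitor of the same pathway, stood at 410 CPM and 223 CPM, a ratio of 1.84 (0.988 to 3.81). Icos stood at 315 CPM and 243 CPM, a ratio of 1.30 (0.702 to 2.61), and Cd44, the hyaluronan receptor of antigen-experienced T cells, at 307 CPM and 303 CPM. The early receptor-response gene Nr4a3 had 25 UMIs at 1.5 ppm, 18 of them in 1 T cell, and 0 at filtered air. Both inhibitors are also carried by macrophages, with Tnfaip3 in 27.2% and Nfkbia in 54.8% of macrophage-rich barcodes, and the part of free macrophage RNA was not tested.

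The level of cell cycle genes depended on the macrophage-rich T cells. With all 78 they summed to 1763 CPM at 1.5 ppm and 607 CPM at filtered air, and with the 71 to 526 CPM and 607 CPM, a ratio of 0.866 (0.579 to 1.33). Mki67, the marker of dividing cells, was found in 1 of the 71. In the other barcodes of the same libraries the list stood at 2315 CPM at 1.5 ppm and 1242 CPM at filtered air. Type I interferon genes stood at 295 CPM in T cells at 1.5 ppm and 142 CPM at filtered air. The ratio was 2.08 (0.961 to 5.36), on 74 and 7 UMIs. Without the T cell with most UMIs of the list in each library it was 4.01 (1.31 to 19.96), on 65 and 3 UMIs. The 3 UMIs at filtered air are at the floor, so this last ratio supports no direction.

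Heat shock genes differed little between the T cells of 1.5 ppm and filtered air. The 10 genes summed to 4687 CPM at 1.5 ppm (4423 to 4963) and 4086 CPM at filtered air (3542 to 4690), a ratio of 1.15 (0.987 to 1.34). Without the T cell with most UMIs of the list in each library the ratio was 1.20 (1.01 to 1.42), an interval just above equal levels. That step took 39 of 202 UMIs at filtered air and 99 of 1177 at 1.5 ppm, so this ratio supports no direction. None of the 8 with enough UMIs was past 2-fold, and their median log2 ratio was 0.16. In the other barcodes, mostly macrophages, they summed to 5098 CPM at 1.5 ppm and 2900 CPM at filtered air. The 4 T cells of 1 ppm stood lower, at 1834 CPM (1357 to 2425), a ratio of 0.449 (0.322 to 0.616) to filtered air. The chaperone Hsp90aa1 had 0 UMIs in those 4 and 23 UMIs in 10 of 12 T cells at filtered air, at least 4.14-fold lower at 1 ppm. At 1.5 ppm it had 127 UMIs in 42 of 55 T cells, at least 4.50-fold higher than at 1 ppm.

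**Figure D5:**
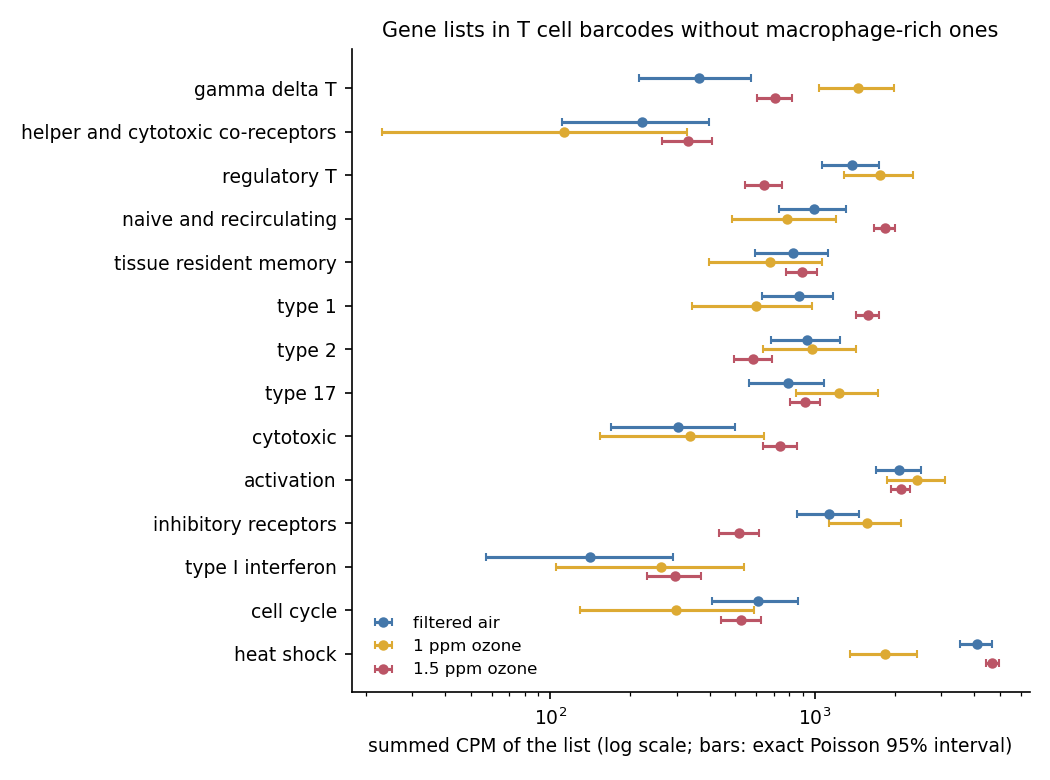
Summed CPM (log scale) of 14 gene lists in the 71 T cell barcodes below 0.5% macrophage-marker UMIs, by library, with exact Poisson 95% intervals. The naive and recirculating list stands at 1836 CPM in the 1.5 ppm library, against 991 CPM in filtered air, while the activation list stands at 2111 and 2084 CPM. 1 T cell of filtered air holds 57 of the 68 regulatory T UMIs there.

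Beyond the lists, the genes with the largest ratios of 1.5 ppm over filtered air in the 71 were, after Scart1, Lat and Trdc, led by Mir155hg, the host transcript of microRNA 155. It had 37 UMIs in 8 of 55 T cells at 1.5 ppm and 0 at filtered air, at least 2.43-fold higher. Of these UMIs, 26 were in the T cell with 85 UMIs of Cd74, whose kind was not determined. H2-Eb1, a class II antigen-presentation gene, had 33 UMIs, all in the same 1 T cell that held the Cd74 UMIs. Mtpn, Pole4 and Ndufb10 had 36, 36 and 34 UMIs in 23, 25 and 23 T cells at 1.5 ppm and none at filtered air. All 3 are carried by macrophages too, at 279.7, 67.7 and 205 CPM in the macrophage-rich barcodes of the 1.5 ppm library, and the part of free RNA was not tested. On the lower side stood Frmd5, whose 106 UMIs at filtered air were all in the T cell with Foxp3, and Atf5, with 11 UMIs at 1.5 ppm and 17 at filtered air, 9 of these in 1 T cell. Kcnn4, the potassium channel that sustains calcium entry in activated T cells, stood at 47.8 CPM in 10 of 55 T cells at 1.5 ppm and 243 CPM in 5 of 12 at filtered air, a ratio of 0.197 (0.0809 to 0.479). Gphn stood at 374 CPM and 1639 CPM, with 44 of its 81 UMIs at filtered air in 1 T cell. Chp1, Raph1 and Upf2 completed the lower 8 with Tnfaip3.

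The 4 T cells of 1 ppm ozone gave few genes with enough UMIs. Against filtered air 46 genes (7.73%) were past 2-fold higher and 54 (9.08%) past 2-fold lower, together 16.8% of 595. Rbm3, a cold-inducible RNA-binding protein, led with 1085 CPM in 4 of 4 T cells at 1 ppm and 223 CPM in 6 of 12 at filtered air, a ratio of 4.88 (2.37 to 10.8), and 17 of its 29 UMIs were in 1 T cell. Emb, an adhesion protein, had 1385 CPM at 1 ppm and 324 CPM at filtered air, with 25 of 37 UMIs in 1 T cell. S100a6, Cox6c, Sntb1, Nme2, Rabep1 and Vim completed the higher 8, with ratios between 3.28 and 3.70. After Frmd5 and Hsp90aa1, the lower side was led by Phf21a and Ubxn4, each with 1 UMI at 1 ppm and with 27 and 23 UMIs at filtered air. Ctla2a, a cysteine protease inhibitor with 0 UMIs in the 2186 macrophage-rich barcodes of 1 ppm, had 3 UMIs in 1 of 4 T cells at 1 ppm and 41 in 10 of 12 at filtered air, a ratio of 0.135 (0.0268 to 0.424). Arid4b and Tpp2 were also among the lower 8.

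Against 1 ppm, 491 genes (10.6%) were past 2-fold higher and 889 (19.2%) lower at 1.5 ppm with all 78 T cells, together 29.9% of 4622. With the 71 they were 335 (11.5%) and 370 (12.7%), together 24.1% of 2922. Runx3, a factor of cytotoxic and tissue resident T cells, was found in 27 of 55 T cells at 1.5 ppm (211 CPM) and in 0 of 4 at 1 ppm. Arhgap26, Tbl1x, Neat1, Mef2a and Snx3 had 57 to 79 UMIs at 1.5 ppm and 0 at 1 ppm, and stood between 122 and 496 CPM in macrophage-rich barcodes of the 1.5 ppm library. Cst3 and Cd74, which led the ranking beside Hsp90aa1, rested on the 1 T cell named above, with 131 of 154 and 85 of 86 UMIs. On the lower side, Ikzf2 had 50 UMIs at 1.5 ppm and 33 at 1 ppm, a ratio of 0.161 (0.102 to 0.258), with 28 of the 33 in the Trdc T cell with Scart1, and all 8 UMIs of Blk at 1 ppm were in that cell too. Suds3, Pard3, Cd200r1, Cep170, Anxa6 and Cited2 completed the lower 8, with 7 to 12 UMIs each at 1 ppm. With 4 T cells at 1 ppm, a single cell can set each of these values.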

How the data were processed

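Droplet single-cell RNA sequencing was run on 3 pools of lavage immune cells, 1 pool per exposure. The authors deposited UMI counts for each gene in each barcode. Per the file headers these came from Cell Ranger 8.0.0, and the submitters' processing notes name the builds GRCm39 and mm39. The treatment of intronic reads was not given in the sources used here. Coordinates are printed for the RefSeq promoters alone, on GRCm38.p6, and gene names are those of the 33696 genes in the deposited tables.

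Members, gene lists and comparisons were chosen with earlier results of these data known. UMIs were summed over the T cells of a library and expressed as CPM, with exact Poisson intervals. Ratios of CPM carry exact conditional intervals and shares carry exact binomial (Clopper-Pearson) intervals, all at 95%. For log2 ratios, 1 UMI was added to both sums. Genes entered a comparison from 20 UMIs over both libraries, and a count of 0 was set against a floor of 3 UMIs per library. No test was possible with 1 library per exposure. The genes named are those of 15 lists and, for each pair of libraries, the 8 largest and 8 smallest log2 ratios past 2-fold whose interval excludes 1, plus the 20 genes with the largest ratio of T cells over other barcodes from 50 UMIs, leaving out mitochondrial, ribosomal protein, haemoglobin, sex-linked and predicted genes. Genes named for single cells were singled out after their values were seen. The limit of 0.5% of UMIs from 13 alveolar macrophage markers was set after seeing the data. The ratio step was tested on simulated data. Scripts ran with a random seed of 1 in Python 3.11.15 with pandas 2.3.3, numpy 2.4.6, matplotlib 3.10.9 and scipy 1.17.1. Alternatives covered the rule, the filters, thinning to 1000 UMIs, the UMI minimum, the pseudocount, the scaling and the macrophage-rich T cells. A few of the genes that this rule names are not reported here.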

Additional observations from a re-analysis of the deposited data

How the results depend on the processing

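A share was held to its binomial interval, a count of genes to 1.5 times and a list's median log2 ratio, which has no interval, to a shift of 1. By these limits 158 of the values under another setting stayed, 29 moved and 2, both medians of cell cycle genes, reversed. Of 99 list medians under another setting, 22 had another sign than with all 78 T cells, 2 of them where the first value was at least 1 in size and 20 where it was smaller. The share of T cells at 1.5 ppm was 0.699% where 5 UMIs of the 6 genes were asked for and 0.515% after thinning to 1000 UMIs. Over barcodes below 0.5% macrophage-marker UMIs the shares were 11.3, 7.27 and 10.1% in the order of dose. The share of T cells with Cd4 at 1.5 ppm was 6.45% after thinning.

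Against filtered air, 223 genes were higher at 1.5 ppm and 272 lower without the macrophage-rich T cells, and 208 and 258 without these and T cells with 5 or more UMIs of another cell type's markers, a setting chosen after seeing the data. A minimum of 50 UMIs gave 244 and 181, a minimum of 10 UMIs gave 1485 lower, and the mean of each T cell's CPM gave 393 higher. Between 1 ppm and filtered air, 187 higher and 200 lower were counted from 10 UMIs, and 8 and 9 from 50. Between 1.5 and 1 ppm, the counts were 297 higher and 387 lower without T cells carrying another type's markers, 370 lower without the macrophage-rich ones, 285 and 213 from 50 UMIs, 1881 lower from 10 UMIs and 1092 higher with a pseudocount of 0.5 UMI.

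The median log2 ratio of cell cycle genes for 1.5 ppm over filtered air was 1.70 with all 78 T cells, -0.64 without the macrophage-rich ones and 0.045 as the mean of each T cell's CPM, and for 1.5 over 1 ppm it was -0.21 as that mean. The medians for 1.5 over 1 ppm were 0.42 for the receptor list and 0.95 for the cytotoxic list without T cells carrying another type's markers, and -0.82 for gamma delta genes without the macrophage-rich ones. For 1.5 ppm over filtered air, the medians with and without the macrophage-rich T cells also differed in sign for naive (-0.04 and 0.69), tissue resident memory (-0.44 and 0.29), type 1 (-0.26 and 0.47) and activation genes (-0.34 and 0.26). For 1.5 over 1 ppm they did for tissue resident memory (-0.31 and 0.27) and cytotoxic genes (-0.09 and 0.72). Leaving out the T cell with most UMIs of a list was chosen after seeing the data. It removes 1 of 12 T cells at filtered air but 1 of 55 at 1.5 ppm, so ratios after it support no direction. The cause of these shifts was not tested. No paired analysis was possible because each exposure is 1 library, and for the same reason no replicate could be left out. The counts of 12 and 4 T cells in the filtered air and 1 ppm libraries limit every comparison.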
